A study of Danio rerio with 2 samples.

Results

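Enzyme-positive barcodes of the zebrafish intestine are described here, that is, the barcodes in which the pancreatic enzyme genes ela2, ela2l, ctrb1, prss1, prss59.1, cel.1 and cpb1 together made 2% or more of all unique molecular identifiers (UMIs, the tags that count each copied transcript once). The rule selects candidate acinar cells of the exocrine pancreas. It was met by 88 of 5891 barcodes in the wild-type (WT) library, which is 1.49% (95% exact binomial interval 1.2 to 1.84%), and by 3 of 5599 barcodes in the nod2-/- library, or 0.0536% (0.0111 to 0.157%). In all, 91 of 11490 barcodes were chosen. The barcodes were selected on the measured levels of these 7 rule genes, so the values of every gene in them against other cells are a description and carry no test.

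The study sequenced dissociated whole intestines of cohoused offspring from a heterozygous in-cross in the TL background, 6 months old, with 1 library of WT fish and 1 of fish homozygous for a frameshift deletion in nod2. Each library pooled 5 fish, 2 males and 3 females, and fish cannot be separated within a pool. With 1 library of each genotype there is no replicate, and intervals cover counting error only. The WT library held 34052268 UMIs and a median of 3400 per barcode, and the nod2-/- library held 22244173 and a median of 1940. The libraries shared 10 barcode sequences, none of them among the 91. The UMIs of nod2, 139 in the other WT cells, 75 in the other nod2-/- cells and 0 in the 91 barcodes, do not check the genotype labels, because the tags lie at the 3' end of a transcript and the deletion is in a 5' coding exon.

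Acinar cells make digestive enzymes and store them, mostly as inactive zymogens, in granules that open into the pancreatic ducts and so into the gut. Trypsin activates the other zymogens, chymotrypsins and elastases cut inside proteins, carboxypeptidases trim their ends, and lipases and amylase digest fat and starch. In zebrafish the exocrine pancreas is spread along the intestine, so that pieces of it can come along when an intestine is dissected. Making so much secreted protein needs the translocon and the folding enzymes of the endoplasmic reticulum (ER), and in mammals the factors Ptf1a and Rbpjl switch on the enzyme genes.

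The 88 WT barcodes were not alike in their enzyme share. Over 3 lists of digestive enzymes (the 7 rule genes, other proteases, and lipases, amylase and nuclease), 5 barcodes had 71.8 to 76.9% of their UMIs in enzyme genes. The other 83 had 3.35 to 49.2%, with a median of 7.71%. These 5, called enzyme-rich here, held 49073, 15350, 9993, 4482 and 1050 UMIs, and together 41.5% of the UMIs and 85.4% of the rule gene UMIs of the 88. The deepest of them alone held 25.5% of all UMIs in the 88. The division at 70% was made after the values were seen, and the 83 are called enzyme-poor.

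**Figure D1:**
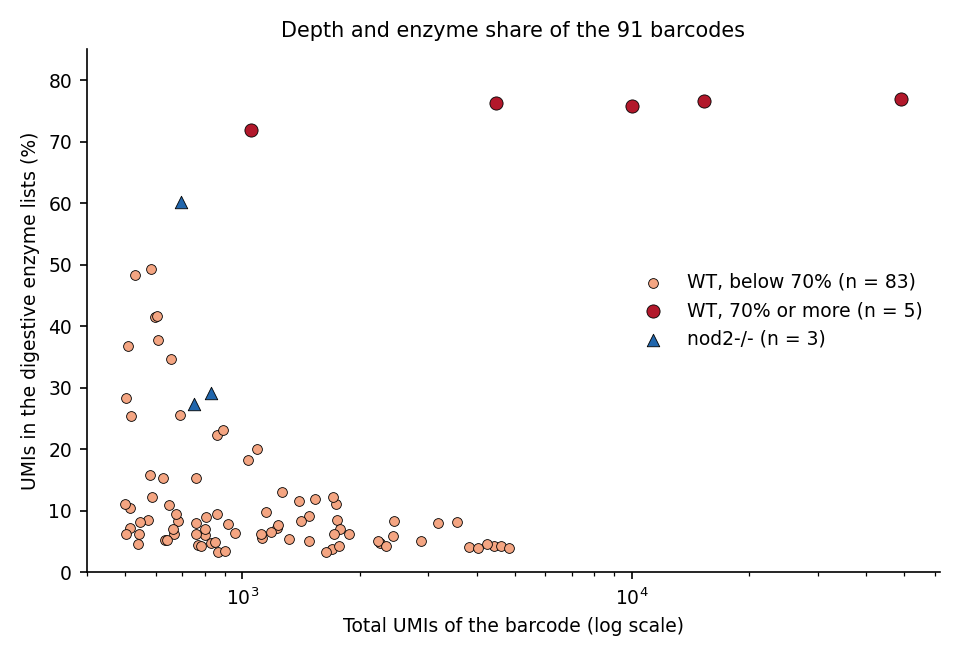
Total UMIs (log scale) against the share of UMIs in the digestive enzyme lists for the 91 barcodes, 1 point per barcode. The 5 enzyme-rich WT barcodes lie above 70% at 1050 to 49073 UMIs, while the 83 enzyme-poor WT barcodes reach 49.2% and 4839 UMIs, and the 3 nod2-/- barcodes lie at 27.4 to 60.2%.

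No gap separated the 88 from the cells below the cut. The lowest shares inside the rule were 2.01, 2.05 and 2.09%, and the highest outside it were 1.98, 1.96 and 1.93%. A further 61 WT cells lay between 1 and 2%, 83 between 0.5 and 1%, 985 above 0 and below 0.5%, and 4674 had no UMI of a rule gene. Of the 88, 54 lay between 2 and 5% and only 1 above 40%.

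All 5 markers set for acinar cells (ela2, ctrb1, prss1, cpb1 and cel.1) were detected in the 5 enzyme-rich barcodes. The markers are among the rule genes, so their detection follows in part from the selection and supports nothing. Among the 83 enzyme-poor barcodes, 29 held all 5, 34 held 4, 15 held 3 and 5 held 2. The enzyme-poor barcodes were shallow, with a median of 892 UMIs (501 to 4839) against 3489 in the other 5803 WT cells. Their largest transcript was zgc:158463, which RefSeq lists as an rRNA. It made 23.3% of their UMIs, 0.813% in the enzyme-rich barcodes, 7.66% in the other WT cells and 15.5% in the 1809 other WT cells of at most 1705 UMIs. Mitochondrial transcripts made 0.23 to 4.48% of UMIs in the 5 enzyme-rich barcodes and 0.55 to 43.5% in the 83, where 9 barcodes passed 25%. The medians were 5.80% in the 83 and 6.798% in the other WT cells, of which 438 of 5803 passed 25%. The 83 are therefore called by the rule and not by a cell type, and the source of their enzyme UMIs was not tested. Their lower enzyme share follows from the division at 70%. The division also caps the rRNA, mitochondrial and marker shares of all UMIs in the enzyme-rich barcodes, so these differences follow in part from it. Of UMIs outside the enzyme lists, rRNA made 1.97, 9.22, 1.196, 2.63 and 13.2% in the enzyme-rich barcodes, in order of depth. In the 83 the median was 23.9% and the 5th percentile 6.31%. Mitochondrial transcripts made 1.71% of these UMIs in the pooled enzyme-rich barcodes and 11.9% in the pooled 83. The shallowest enzyme-rich barcode had 15.9%, above the median of 6.52% in the 83.

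Of 4692 genes with 20 CPM (UMIs of a gene for each 1000000 UMIs of the set) or more in the 88 barcodes or in the other WT cells, 73 were at least 4 times higher in the 88 (1.56%) and 477 at least 4 times lower (10.2%), with 5 CPM added to both levels. The rule used this contrast, so nothing is read from these shares. The median log2 ratio of all 4692 genes was -0.81, because the enzymes took 36.8% of the UMIs of the 88 and 0.0484% of those of the other cells. Of the 73 genes, 32 belonged to the enzyme and secreted product lists. The calls are thin beyond these, since 32 of the 73 were found in 5 or fewer barcodes and 29 rested on fewer than 20 UMIs.

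**Figure D2:**
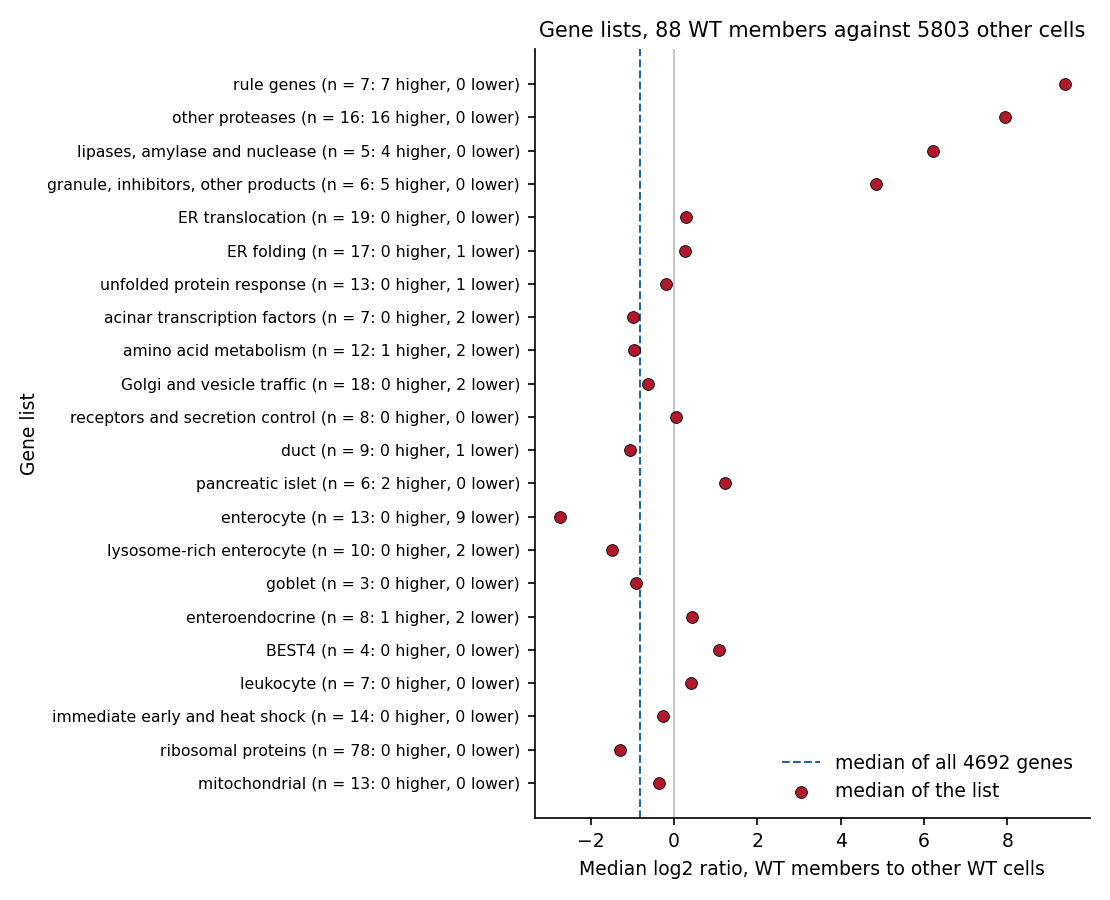
Median log2 ratio of each gene list in the 88 WT members against the other WT cells, with the number of genes measured and called per list and the median of all 4692 genes as a dashed line at -0.81. The enzyme lists lie between 6.20 and 9.37 and the enterocyte list is lowest at -2.74.

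Trypsins held the largest share of enzyme UMIs in the pooled 88 barcodes, but not in each of them. Elastases passed them in 3 of the 5 enzyme-rich barcodes and in the enzyme-rich pool without the deepest, at 36.2 against 35.4%. The rule gene prss1 (ENSDARG00000042993), a trypsinogen, made 13.0, 11.99, 6.85, 6.94 and 6.19% of UMIs in the 5 enzyme-rich barcodes, in order of depth, and 0 to 6.54% (median 0.940%) in the 83. Every enzyme-rich barcode but the shallowest lay above all 83. The gene prss1 counts toward the share that set the division, so this order follows in part from the division. Summed over the 88 its level was 54898 CPM against 56.0 in the other WT cells, 981-fold, a log2 ratio of 9.94 (9.87 to 10.0, with nothing added). Next to it in function, prss59.1 (ENSDARG00000079274) and prss59.2 stood at 52354 and 37018 CPM and had UMIs in 88 of 88 barcodes each. These neighbouring genes are close copies and reads could have been split between them, so each count is uncertain.

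Chymotrypsins were carried mainly by ctrb1 (ENSDARG00000090428), a chymotrypsinogen. Its share of UMIs was 9.59, 3.26, 10.2, 9.08 and 6.57% in the enzyme-rich barcodes and 0.184 to 6.89% (median 0.936%) in the 83. The barcodes of 15350 and 1050 UMIs thus lay inside the range of the enzyme-poor barcodes for ctrb1, the first of them although its prss1 was above all 83. Its neighbours zgc:112160 and zgc:136461, named ctrb.3 and ctrb.2 in RefSeq, stood at 7892 and 3562 CPM, and the chymotrypsin-like protease ctrl at 15700.

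Elastases held the most abundant messenger RNA of the 88, cela1.6 (ENSDARG00000017314). It made 14.7, 12.4, 16.6, 13.7 and 22.2% of UMIs in the enzyme-rich barcodes, all above the 0.185 to 10.3% (median 1.59%) of the 83. The gene cela1.6 also counts toward the share that set the division, so this order follows in part from the division. Its summed level was 70287 CPM against 87.2 in the other WT cells, a log2 ratio of 9.66 (9.60 to 9.71). The rule genes ela2l (ENSDARG00000056765) and ela2 (ENSDARG00000056744), which lie next to each other, reached 23041 and 3774 CPM. The proelastase ela3l reached 20684 CPM, while cela1.1, cela1.2, cela1.3 and cela1.5 stayed between 415 and 2072 CPM.

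Carboxypeptidases were spread more unequally over the 88 than the trypsins. The rule gene cpb1 (ENSDARG00000045442), carboxypeptidase B, had 1156, 511, 180, 125 and 11 UMIs in the enzyme-rich barcodes. In the 83 it had 125 UMIs in all, and 23 of them had none, which gives 1110 CPM against 24804 in the enzyme-rich barcodes. Its level over the 88 was 10944 CPM against 6.53 in the other WT cells, a log2 ratio of 10.7 (10.5 to 10.9) and the largest of the 7 rule genes. The carboxypeptidase A gene cpa5 had 1254 UMIs in the enzyme-rich barcodes and 68 in the 83, its neighbour cpa1 had 257 and 7, and cpa4 had 61 and 0. These genes count toward the share that set the division, so this order follows in part from the division. The 83 held a median of 892 UMIs, so barcodes with no UMI of cpb1 are not read as lacking it.

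Lipolytic enzymes and amylase followed the carboxypeptidases. The carboxyl ester lipases cel.1 (ENSDARG00000017490) and cel.2, again neighbours, had 532 and 1126 UMIs in the enzyme-rich barcodes and 82 and 54 in the 83. Pancreatic amylase, amy2a, had 165, 93, 171, 93 and 18 UMIs in the enzyme-rich barcodes, that is 0.34, 0.61, 1.71, 2.07 and 1.71% of UMIs. In the 83 it was found in 17 barcodes and reached 0.332%, just under the 0.34% of the deepest enzyme-rich barcode. Amylase is in the enzyme lists that set the division, so this order follows in part from the division and is not read. The phospholipase pla2g1b had 77 UMIs in the enzyme-rich barcodes and 9 in the 83. Over the lists, all 16 other proteases measured and 4 of 5 lipases, amylase and nuclease were called higher, beside 1.56% of all genes. The exception was the gastric lipase lipf, at 15.6 CPM in the 88 and 23.9 in the other cells. The barcodes were chosen on enzyme genes, so these counts follow in part from the rule.

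**Figure D3:**
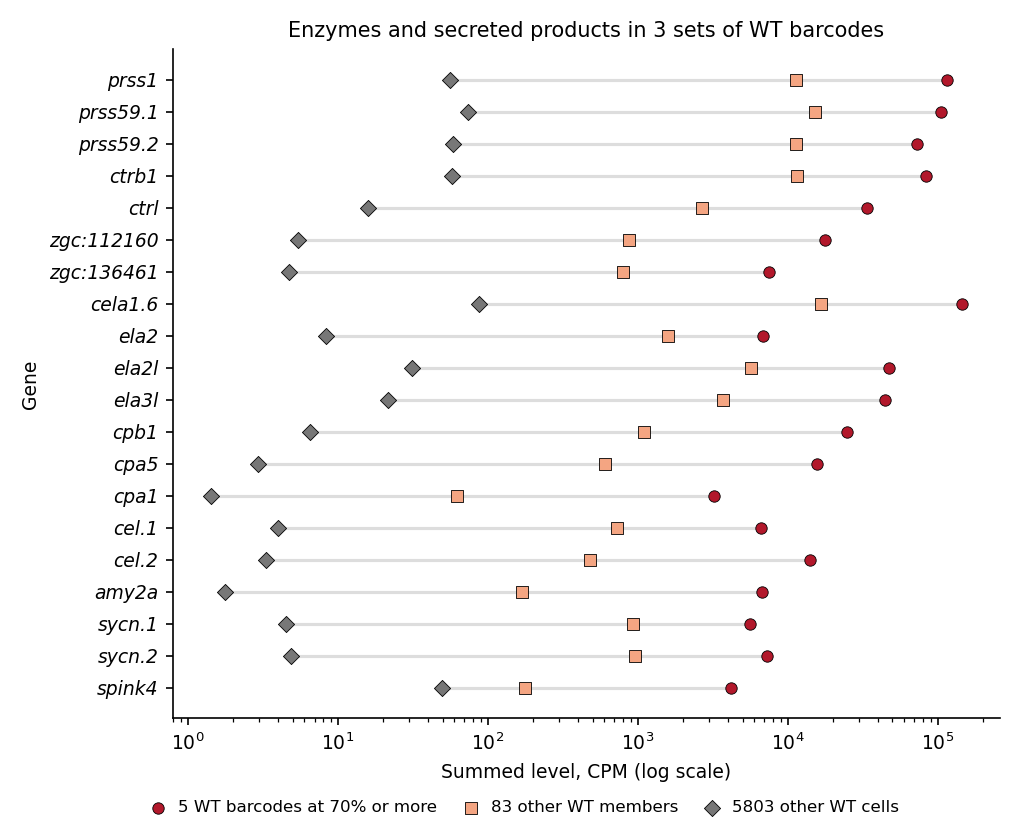
Summed level of 20 enzyme and product genes (CPM, log scale) in the 5 enzyme-rich barcodes, the 83 enzyme-poor members and the 5803 other WT cells. Every gene is ordered enzyme-rich, enzyme-poor, other cells, and the step between the first and second set is wider for cpa1, amy2a and cel.2 than for ela2. For the genes of the enzyme lists this order follows in part from the rule and the division.

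The pooled mixture of enzymes differed between the enzyme-rich barcodes and both the 83 and the other WT cells. Among the UMIs of 6 enzyme classes, carboxypeptidases made 5.86% (5.68 to 6.05) in the enzyme-rich barcodes, 2.08% (1.81 to 2.39) in the 83 and 2.47% (2.23 to 2.73) in the other 5803 WT cells. Amylase made 0.885% (0.812 to 0.963), 0.197% (0.119 to 0.307) and 0.396% (0.302 to 0.509) in the same order. Lipolytic enzymes made 2.84, 1.5 and 1.88%. Without the deepest barcode the enzyme-rich values were 6.57% for carboxypeptidases, 1.603% for amylase and 3.62% for lipolytic enzymes. Single barcodes did not all follow the pool. The deepest had 0.439% amylase and 2.36% lipolytic enzymes, beside 0.633 and 2.33% in the WT cells below 0.5% in the rule genes. The shallowest had 2.66% carboxypeptidases, beside 3.10% in those cells.

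Trypsins, in turn, made 38.5% (38.2 to 38.9) of enzyme UMIs in the enzyme-rich barcodes, 44.2% (43.2 to 45.2) in the 83 and 42.2% (41.4 to 43.0) in the other WT cells. Elastases made 33.1, 33.4 and 34.3%, and chymotrypsins 18.8, 18.6 and 18.8%. Within the 83 the mixture hardly moved with the rule share: trypsins made 44.0% in the 14 barcodes at 10% or more and 44.3% in the 69 below, and carboxypeptidases 2.22 and 2.02%. The 144 WT cells just under the cut, at 0.5 to 2%, had 42.8% trypsins and 2.004% carboxypeptidases.

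The 5 enzyme-rich barcodes also differed among themselves by more than counting error. Trypsins ranged from 22.1% (19.2 to 25.2) of enzyme UMIs in the shallowest to 40.5% (40.003 to 40.998) in the deepest, and elastases from 51.6% (48.0 to 55.2) in the shallowest to 31.2% (30.7 to 31.7) in the deepest. Amylase made 0.439% (0.374 to 0.511) in the deepest and 2.75% (2.22 to 3.35) in the barcode of 4482 UMIs. The share of ctrb1 alone ran from 4.27% in the barcode of 15350 UMIs to 13.6% in that of 9993.

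**Figure D4:**
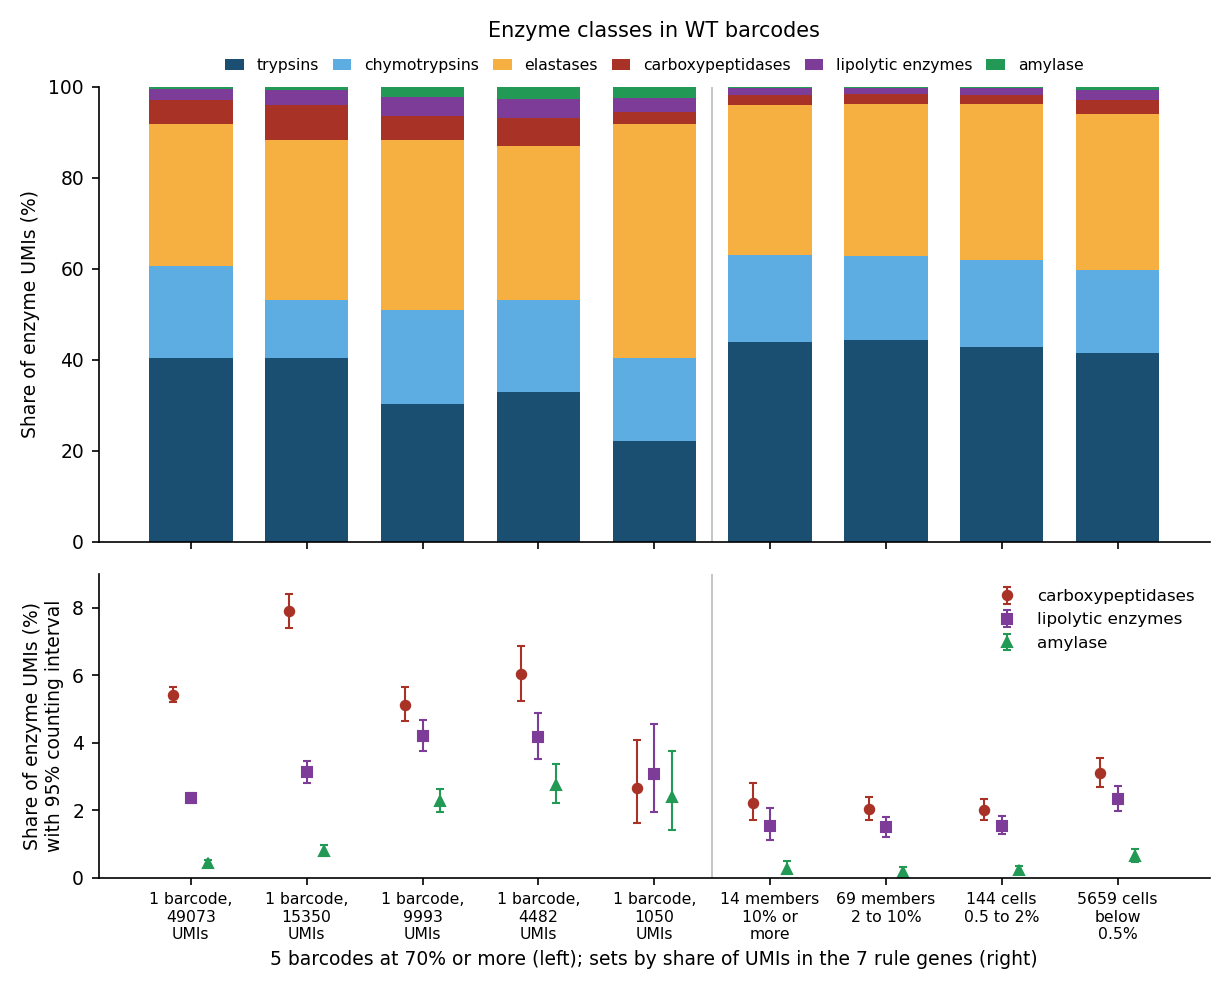
Share of 6 enzyme classes among enzyme UMIs (top, stacked to 100%) and the 3 smaller classes with 95% exact binomial intervals (bottom), for each enzyme-rich barcode and for sets of WT barcodes by their share of UMIs in the rule genes. Carboxypeptidases stand at 5.13 to 7.89% in the 4 deeper enzyme-rich barcodes and at 2.004 to 3.10% in the sets, while the shallowest barcode, at 2.66%, overlaps the sets.

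The list of secreted products that accompany the enzymes made 1.77% of UMIs in the pooled enzyme-rich barcodes, 0.222% in the 83 and 0.0158% in the other WT cells. Syncollin, a protein of the zymogen granule membrane, is encoded by sycn.1 and sycn.2, which had 224, 121, 67, 32 and 6 UMIs and 364, 123, 66, 31 and 1 UMIs. The protease inhibitor gene spink4 had 337 UMIs in the enzyme-rich barcodes and 20 in the 83, and was not bound to them, with 49.4 CPM in the other WT cells. The endoribonuclease gene endou had 27 and 2 UMIs, and pdia2, the pancreatic protein disulfide isomerase, 18 and 11, the 11 in 1 barcode. Single barcodes overlapped for these genes. The shares of sycn.1, sycn.2, endou and pdia2 reached 0.788, 0.801, 0.0446 and 0.0952% in the enzyme-rich barcodes. In the 83 they reached 0.771, 0.821, 0.116 and 0.238%. Of 6 products measured, 5 were called higher, beside 1.56% of all genes. The trypsin inhibitor-like spink2.1 was not, at 20.8 CPM against 65.2.

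Outside the lists, 4 adjacent genes with no role known here ranked with the enzymes. The most abundant, si:ch211-240l19.8 (ENSDARG00000074547), had UMIs in 88 of 88 barcodes, at 25803 CPM against 64.5 in the other WT cells, a log2 ratio of 8.64 (8.57 to 8.72). It made 4.29, 1.97, 7.53, 7.70 and 6.0% of UMIs in the enzyme-rich barcodes and 0.256 to 8.26% (median 1.08%) in the 83, so the groups overlapped. Per 100 UMIs of the enzyme classes it held 5.85 UMIs in the enzyme-rich barcodes, 14.5 in the 83 and 14.4 in the other WT cells. The adjacent si:ch211-240l19.5, si:ch211-240l19.6 and si:ch211-240l19.7 reached 4174, 2040 and 768 CPM, and reads could have been split among these copies.

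The other 6 genes with the highest ratios outside the lists, at 50 CPM or more, had most of their UMIs in the enzyme-rich barcodes. The water channel gene aqp12, whose mammalian counterpart is known from acinar cells, had 32, 6, 6, 3 and 2 UMIs there and 7 in the 83. The gene bhmt, for betaine-homocysteine methyltransferase, had 29, 39, 12, 4 and 2 UMIs there and 8 in the 83. Both had UMIs in all 5 enzyme-rich barcodes. The reticulon gene rtn1a, for an ER membrane protein, had 41 UMIs in 4 of the 5 and 1 in the 83, and was called higher only through the enzyme-rich barcodes, with a log2 ratio of -0.02 in the 83 alone. The adjacent pair si:dkey-14d8.6 and si:dkey-14d8.7 had 254 and 59 UMIs in the enzyme-rich barcodes and 55 and 9 in the 83. The last gene named by the rule, si:ch211-195b11.3, had 60 and 14.

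The secretory machinery was compared per UMI outside the enzyme lists, of which the 5 enzyme-rich barcodes held 18709, since enzymes fill most of each barcode. Genes of ER translocation (the Sec61 channel, the signal peptidase and the translocon-associated proteins) made 1.22, 0.864, 0.701, 0.847 and 0% of these UMIs in the enzyme-rich barcodes, on 138, 31, 17, 9 and 0 UMIs. The pooled share was 1.04%, against 0.221% in the 83, 0.181% in the other WT cells, 0.294% in 334 goblet cells and 0.190% in 130 enteroendocrine cells, the latter groups taken by their markers as other secretory cells. The enzyme-rich pool was 5.74 times (4.97 to 6.61) the other WT cells, and 4.26 times without the deepest barcode. The shallowest barcode had 0 of 296 such UMIs, which allows a share of up to 1.01%.

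ER folding genes showed a smaller difference, with 0.371, 0.669, 0.330, 0.282 and 0% of non-enzyme UMIs in the enzyme-rich barcodes and 0.124% in the other WT cells, 3.31-fold (2.61 to 4.14). Goblet cells had 0.199%. Among single genes, the translocon subunit sec61g had 70, 14, 4, 2 and 0 UMIs, the translocon-associated ssr2 13, 4, 3, 3 and 0, and the ER cyclophilin ppib 23, 8, 0, 0 and 0. The chaperone gene hspa5 had 7 UMIs in 4 of the 5. Of 17 ER folding genes measured over the 88 on total UMIs, none was called higher. Only p4hb was called lower, at a log2 ratio of -2.08, beside 1.56% higher and 10.2% lower of all genes. In the enzyme-rich barcodes p4hb had 1 UMI, which is 0.25 times the other WT cells per UMI outside the enzymes. On this scale 3 folding genes were called higher and 2 lower, beside 2.89% and 68.4% of all genes. The unfolded protein response list was 1.51 times (1.05 to 2.11) the other WT cells, with 20 of its 34 UMIs from xbp1. Of its 13 genes measured, 2 were at least 4 times higher on this scale and 8 at least 4 times lower. Over all 4664 genes these shares were 2.89% and 68.4%. On this scale 1 UMI in the enzyme-rich pool is 53.5 CPM, above the 20 CPM needed for a gene to be measured. A gene with 0 UMIs there can thus be called lower, as was atf6, at 33.2 CPM in the other WT cells. Lower calls on this scale can rest on such zeros and are not read. Golgi and vesicle traffic genes were 1.17 times (0.693 to 1.85) the other WT cells, an interval that includes no difference.

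Counted gene by gene on this scale, 7 of 19 ER translocation genes were at least 4 times higher in the enzyme-rich barcodes and 5 at least 4 times lower, beside 2.89% higher and 68.4% lower over 4664 genes. The median of the list was 0.99 and that of all genes -2.67. The lower calls and the median of all genes can rest on 0 counts, as above, so the gap between these medians is not read. On total UMIs, and over all 88 barcodes, no ER translocation gene was called higher, the list median was 0.28, and it fell below 0 in 5 of 17 alternatives. In the 5 enzyme-rich barcodes alone the list median on total UMIs was -0.89, with 8 of the 23 genes of the list at 0 UMIs. The summed share on total UMIs was 0.244% in the enzyme-rich barcodes, 0.202% in the 83 and 0.181% in the other WT cells, so the median and the sum of this list differed in sign for the enzyme-rich barcodes.

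**Figure D5:**
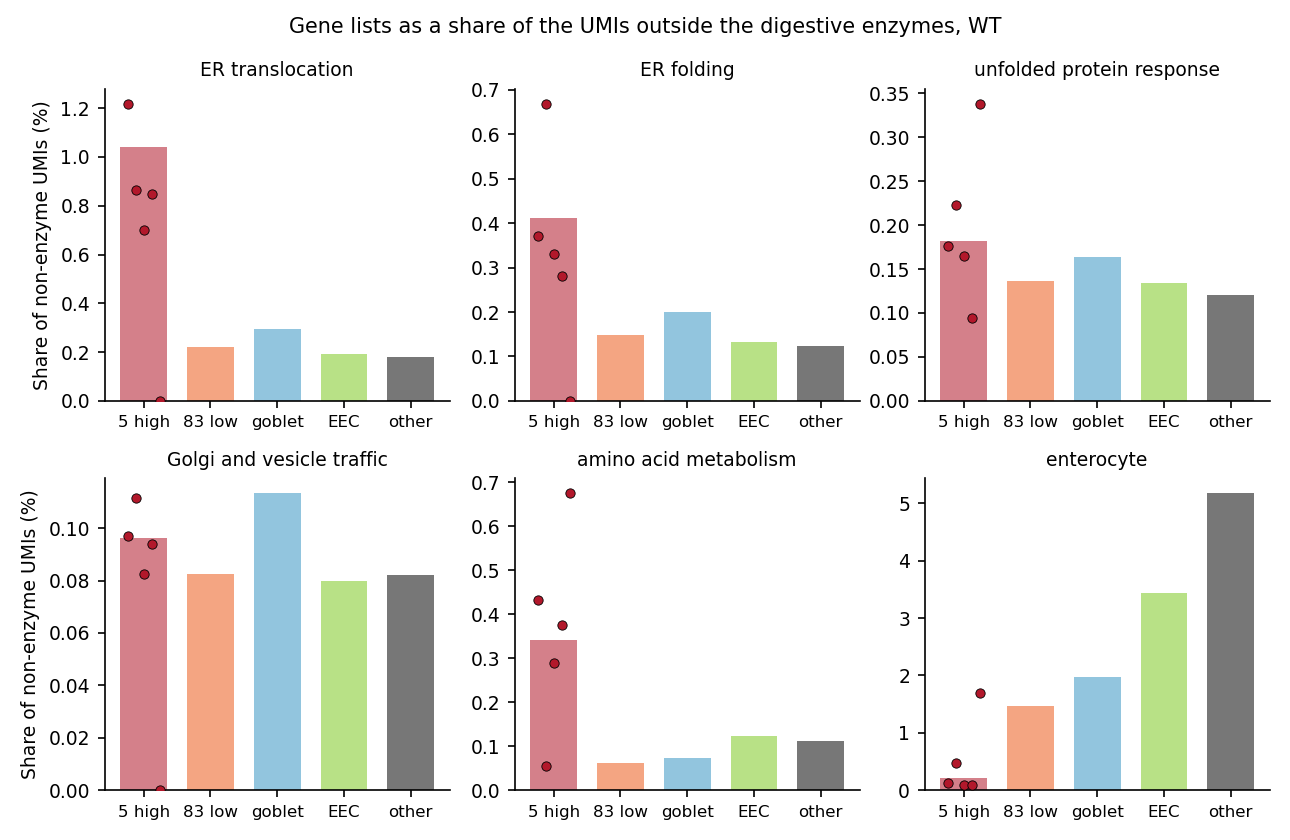
Gene lists as a percent of UMIs outside the digestive enzymes in WT barcodes; bars are pooled shares of the 5 enzyme-rich (5 high) and 83 enzyme-poor (83 low) barcodes, goblet, enteroendocrine (EEC) and other cells, and points are the 5 enzyme-rich barcodes in order of depth. ER translocation stands at 1.04% in the enzyme-rich pool and at most 0.294% in the other groups. The enterocyte list stands at 0.208% in that pool and 5.18% in the other cells, but at 1.69% in the shallowest enzyme-rich barcode.

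Factors that control the acinar state were scarcely detected. The genes ptf1a and rbpjl had 0 UMIs in all 88 barcodes, which allows up to 15.6 CPM, and in the other WT cells they had 4 and 37 UMIs. The gene bhlha15, for the acinar factor Mist1 of mammals, had 1 UMI in the enzyme-rich barcodes and 1 in the 83. The nuclear receptor gene nr5a2 had 8 UMIs in 3 enzyme-rich barcodes and 1 in the 83, but with 41.1 CPM it was also present in the other WT cells. Per UMI outside the enzymes, its 8 UMIs in the enzyme-rich barcodes were 428 CPM against 41.2 in the other WT cells, 10.4-fold. Of 7 factors measured none was called higher, and nr0b2a was at 10.4 CPM in the 88 against 104 in the other WT cells.

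Amino acid metabolism genes made 0.342% of non-enzyme UMIs in the enzyme-rich barcodes and 0.112% in the other WT cells, 3.06-fold (2.35 to 3.90). Without the deepest barcode this was 1.82-fold. Of the 12 genes of the list measured, 2 were at least 4 times higher on this scale and 6 at least 4 times lower, beside 2.89% and 68.4% of all genes. The lower calls can rest on 0 counts, as above. The creatine synthesis gene gamt supplied 47 of the 64 UMIs, 37 of them in the deepest barcode. The amino acid transporter gene slc38a5b was the 1 gene of this list called higher over the 88, with 10 UMIs, 8 of them in 4 enzyme-rich barcodes. The transporter subunit slc3a2a was called lower, and cth had 0 UMIs.

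Ribosomal protein genes made 31.5% of non-enzyme UMIs in the enzyme-rich barcodes and 25.4% in the other WT cells, 1.24-fold (1.21 to 1.27). The deepest barcode, at 36.5%, carried this, and without it the ratio was 0.938. In the 83 the share was 13.6%. Heat shock and immediate early genes made 0.155% in the pooled enzyme-rich barcodes, 0.692% in the 83 and 0.436% in the other WT cells. In order of depth the 5 had 0.0176, 0.641, 0.124, 0.0941 and 0%, on 2, 23, 3, 1 and 0 UMIs. The pool was 0.355 times the other WT cells, but 0.839 times without the deepest barcode.

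Few genes were detected in an enzyme-rich barcode for its depth. The division chose barcodes with most of their UMIs in the enzyme lists, which leaves few of 1000 UMIs for other genes. The low counts follow at least in part from that division and are given as a description. When each barcode was thinned to 1000 UMIs, the 5 had 131, 147, 133, 124 and 132 genes. The 38 enzyme-poor barcodes deep enough had a median of 408.5, the other WT cells 450, goblet cells 457 and enteroendocrine cells 529, with 45 of the 83 left out as too shallow. Without thinning, the 5 had 137 to 1060 genes and the 83 a median of 342.

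Markers of other cells were few in the pooled enzyme-rich barcodes and present in the enzyme-poor ones. Enterocyte genes such as apoa1a and fabp2, for lipid carriers, made 0.0488% of UMIs in the pooled enzyme-rich barcodes. They made 1.34% in the 83, 5.18% in the other WT cells and 3.43% in the 1809 of these at no more than 1705 UMIs. The medians per barcode were 0.567% in the 83, 2.05% in the other WT cells and 0.683% in those 1809. The comparison over the 88 below is with all other WT cells, which were deeper than the 83. The shallowest enzyme-rich barcode had 0.476%, on 5 UMIs, beside a median of 0.567% in the 83. Of its non-enzyme UMIs this was 1.69%, beside a median of 0.652% in the 83. Of the 83, 63 had UMIs of apoa1a and 45 of fabp2. Over the 88, 9 of 13 enterocyte genes were called lower, beside 10.2% of all genes, the list median was -2.74, beside -0.81 for all genes, and it stayed below 0 in all 17 alternatives. The leukocyte genes ptprc, coro1a and lcp1 and the goblet gene agr2 had 0 UMIs in the enzyme-rich barcodes. A count of 0 there allows up to 37.5 CPM. The leukocyte genes lay below this in the other WT cells, so their zeros are not read, while agr2 stood at 524 CPM. In the 83 these genes were found in 12, 5, 5 and 14 barcodes. They were also found in 623, 370, 181 and 922 of the other 5803 WT cells. Of the 1809 at no more than 1705 UMIs, 408, 203, 92 and 144 had them. Their presence in the 83 is not read as a trait of that group.

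Glucagon genes were called higher over the 88 through a few enzyme-poor barcodes. The gene gcga had 306 UMIs in 11 of the 83, of which 142 lay in 1 barcode, and gcgb had 126 in 5. Neither had a UMI in the enzyme-rich barcodes. The gene gcga is shared by pancreatic alpha cells and some enteroendocrine cells. The genes ins, for insulin, and sst2 had 0 UMIs in the 88. They had only 3 and 94 in the other 5803 WT cells, too few for these zeros to be read. Of the same pancreatic islet list, scgn had 11 UMIs in 6 of the 88 and pyyb 32 in 1. The list reached 17.8% of UMIs in 1 of the 83, and 2 of its 6 genes measured were called higher, beside 1.56% of all genes. Of 8 enteroendocrine genes measured, 1 (gcga) was called higher and 2 (penka and adcyap1a, at 0 UMIs) lower, beside 1.56% and 10.2% of all genes. Another gene of that list, insl5a, had 89 UMIs in 3 of the 83. The BEST4 cell genes ca4b and otop2 were at 415 and 249 CPM in the 88, against 165 and 99.1 in the other WT cells, and at 0 in the enzyme-rich barcodes. These 2 genes had UMIs in only 15 and 7 of the 88. None of 4 BEST4 genes measured was called in either direction. Of the duct list, anxa4 and krt4 had 186 and 93 UMIs, all in the 83. Over the 88 they stood at 966 and 483 CPM, against 775 and 1198 in the other WT cells. In the enzyme-rich barcodes krt18a.1 and krt8 of this list had 5 and 2 UMIs. Of 9 duct genes measured, 1 (slc4a4a) was called lower and none higher, beside 10.2% and 1.56% of all genes. The duct list median was -1.05, beside -0.81 for all genes. Among lists not described above, 2 of 10 genes of lysosome-rich enterocytes were called lower, beside 10.2% of all genes, and none of 8 receptor and secretion control genes, 3 goblet genes, 2 cycling genes, 1 stromal gene and 13 mitochondrial genes was called in either direction. No hepatocyte or erythrocyte gene reached the level needed to be measured, with 2 and 0 UMIs in total.

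Of the genes furthest below the other cells outside the lists, gstt1a, abca1b, slc13a1, ugcg and hsd11b1la had 0 UMIs in the 88 barcodes. With a floor of 3 UMIs over the 88 in place of 0, gstt1a, for a glutathione transferase, was 8.54-fold lower, and the cholesterol exporter abca1b 7.20-fold. The other 3 were 4.44-fold to 6.11-fold lower. The 95% intervals of the log2 ratios reached up to -2.80 for gstt1a, -2.55 for abca1b and -2.31 for slc13a1. They reached -1.85 for ugcg and hsd11b1la. These ratios are on total UMIs, of which the enzymes took 36.8% in the 88. Within the lists, fabp6, a bile acid carrier of ileal-type enterocytes, stood at 8552 CPM in the other WT cells and 597 in the 88, all of it in the 83. In the 83 alone it stood at 1021 CPM, beside 1754 in the 1809 other WT cells of at most 1705 UMIs.

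Enzyme UMIs were also found outside the 88 barcodes, goblet and enteroendocrine cells included. In the other 5803 WT cells the 7 rule genes had 238 CPM (233 to 243), and 19.46% of these cells had at least 1 UMI. WT goblet cells had 316 CPM (297 to 335) with a UMI in 35.0%, at a median of 6413 UMIs, and WT enteroendocrine cells 324 CPM (284 to 367) with a UMI in 20%, at a median of 3221.5. In the other 5596 nod2-/- cells the rule genes had 41.05 CPM (38.4 to 43.8), with a UMI in 9.97% of cells at a median of 1941. For prss1 alone the share of cells with a UMI was 9.13% in other WT cells and 3.06% in other nod2-/- cells. No share is read as expression in those cells, and the source of these UMIs was not tested.

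The 3 nod2-/- barcodes held 831, 753 and 694 UMIs, with 27.4 to 60.2% in the enzyme lists and all 5 markers, and none reached the 70% of the enzyme-rich WT barcodes. A genotype difference in the number of such barcodes cannot be told apart from a difference in the tissue that came with each of the 2 pooled dissections.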

How the data were processed

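Single-cell RNA sequencing of dissociated intestine was done by the study with the 10x Genomics 3' kit v3.1, after digestion and removal of dead cells on an OptiPrep gradient. The authors made the deposited UMI counts per gene and barcode with Cell Ranger 7.0.1 on GRCz11 (per the submitters' processing notes), with no normalization. The methods state limits of 200 to 2500 UMIs and 25% mitochondrial reads, but deposited barcodes lie beyond both upper limits, so all were used and the filter was an alternative. It removes 4 of the 5 enzyme-rich barcodes.

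The barcodes, gene lists and named genes were chosen with earlier results of these data known. Counts were summed over barcodes and divided by their total to give CPM. Genes at 20 CPM or more in either set were compared as log2 ratios with 5 CPM added, and at least 4 times apart was called. Ratios without the added CPM have exact conditional binomial intervals, levels exact Poisson intervals and shares exact Clopper-Pearson intervals, all at 95%. Goblet cells had at least 3 UMIs of agr2 and 2 UMIs of other goblet genes, and enteroendocrine cells at least 3 genes of their list. Named genes were the 7 rule genes, the 10 most abundant genes of the other enzyme and product lists, the 4 most abundant of each other list with up to 2 more called, and, outside the lists at 50 CPM or more, the 10 highest and 5 lowest ratios. Other genes of the lists named in the text, and the division at 70%, were chosen after the values were seen. Some list symbols had no match in the files. The 3' tags count 1 per transcript, so levels were not divided by length.

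Scrublet in scanpy 1.11.5 made 0 automatic doublet calls, so no doublets were removed. Of the WT members, 2 lay above the 95th percentile of its score. TMM factors came from edgeR 4.0.16 in R 4.3.3. All other steps used matplotlib 3.10.9, pandas 2.3.3, scipy 1.17.1 and numpy 2.4.6 under Python 3.11.15. The calculations were tested on simulated data. Gene neighbours and RefSeq names came from an assembly other than GRCz11, so no coordinates are given. Promoter motifs were not analysed here.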

Additional observations from a re-analysis of the deposited data

How the results depend on the processing

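No paired analysis was possible because each genotype has 1 library. Depth limits these results: the 83 enzyme-poor barcodes held at most 4839 UMIs, and 1 enzyme-rich barcode held 25.5% of all UMIs of the 88. The enzyme-rich barcodes of 4482 and 1050 UMIs were also below 4839. The alternatives that divide or leave out the enzyme-rich barcodes were chosen after seeing the data. The number of WT barcodes was 149, 34 and 19 at a cut of 1, 5 and 10%, and 5 at 70% in the enzyme lists. The number of nod2-/- barcodes was 7 at a cut of 1% and 0 at 70% in the enzyme lists. The pooled enzyme share was 20.8, 61.8 and 71.6% at the 3 cuts, 11.0% with the filter of the methods, 38.8% at up to 25% mitochondrial UMIs, 15.2% as a mean over cells, 23.12% without the deepest barcode, 76.6% in the enzyme-rich barcodes alone and 8.597% without them.

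The 73 genes called higher became 120 and 45 with 1 and 20 CPM added, 171 with CPM outside the enzymes, 135 as a mean over cells, 111 without the deepest barcode and 155 without the enzyme-rich ones. The 477 called lower became 27, 2187 and 3074 at the cuts of 1, 5 and 10%, 934 with the filter of the methods, 755 and 87 with 1 and 20 CPM added, 267 at 50 CPM or more, 269 outside the enzymes, 284 with TMM, 3392 in the enzyme-rich barcodes alone and 296 without them. The calls split 73 to 477, but 171 to 269 outside the enzymes, where the median of all genes moved from -0.81 to -0.10, and 96 to 284 with TMM, where it was -0.51.

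The ER translocation median was 0.0924, -0.69 and -1.02 at the 3 cuts, -0.28 with the filter of the methods, 0.0438 at 10 CPM or more and with no minimum, 0.45 at 50 CPM, 0.88 outside the enzymes, 0.60 with TMM, -0.0302 as a mean over cells, 0.0143 without the deepest barcode, -0.89 in the enzyme-rich barcodes alone and 0.0808 without them. The enterocyte median was -1.13, -4.41 and -5.30 at the cuts, -1.35 with the filter of the methods, -2.99 at up to 25% mitochondrial UMIs, -2.82 without the highest Scrublet scores, -2.58 with 20 CPM added, -2.50 at 10 CPM or more and with no minimum, -2.10 outside the enzymes, -2.41 with TMM, -1.81 as a mean over cells, -2.33 without the deepest barcode, -6.41 in the enzyme-rich barcodes alone and -2.06 without them.

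The rule gene level in other cells below 1 and 0.5% was 171 and 101 CPM in WT and 35.4 and 33.8 CPM in nod2-/-. Of 108 named genes, 54 were called and 26 of these stayed called in the same direction in all 17 alternatives. The 3 that changed direction were gcga (-4.03 at a cut of 10%, -3.87 in the enzyme-rich barcodes alone), gcgb (-2.43 and -2.22) and rtn1a (-2.53 with the filter of the methods, -0.0167 without the enzyme-rich barcodes). The cause was not tested.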

Other observations

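Some genes outside all lists were prominent among the non-enzyme UMIs of the enzyme-rich barcodes, and they are given as values chosen after seeing the data. The gene ppdpfa had 53 UMIs in the enzyme-rich barcodes, in all 5 of them, and 20 in the 83, which is 2833 CPM of the UMIs outside the enzymes against 439 in the other WT cells. The methionine cycle gene ahcy had 77 UMIs in 4 of the 5 and 29 in the 83, or 4116 against 743 CPM on the same scale. The stress gene nupr1b had 17 UMIs in 2 of the 5 and 19 in the 83. The clusterin gene clu had 10 UMIs in 4 of the 5 and 0 in the 83, at 6.47 CPM of all UMIs in the other WT cells.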
